A study of Mus musculus with 5 samples.

Results

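The comparison described here is between Ym1+Ly6Chi monocytes and Ym1-Ly6Chi monocytes of mouse BM, both taken 48 h after an i.v. injection of LPS. Ym1, a chitinase-like secreted protein, is encoded by Chi3l3. The members are the 2 monocyte libraries of that pair among the 5 libraries of the series, and the genes compared are the 10431 of 23234 listed genes whose FPKM reached 1 in one library or the other. FPKM is a count of sequenced fragments scaled to transcript length and to the number of mapped fragments of the library. Genes of the Mir, Snor and Scarna families and genes listed at 0 in either library were left out.

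All 5 libraries came from BM of +/Ym1Venus mice on the C57BL/6 strain at 7 weeks of age, in which the fluorescent protein Venus reports expression of Ym1 from 1 allele. The Ym1+ and Ym1- libraries were made from Ly6C+ CD115+ cells that were Venus+ or Venus-, from mice given 100 µg of LPS each. Naive monocytes were Ly6C+ CD115+ Venus- cells of untreated mice, and neutrophils were Ly6G+ cells of mice 48 h after the same dose or of untreated mice. Each condition has 1 library, and how many mice went into it was not found in the labels or methods. No difference therefore has a replicate check or a p-value, and each value describes a pair of libraries. Because the sort used the Ym1 reporter, the difference in Chi3l3 itself is a check of the sort.

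Ly6Chi monocytes leave the BM in response to chemokines, and LPS, a cell wall component of Gram-negative bacteria, is sensed through Toll-like receptor 4. After such a challenge the BM steps up myeloid cell production, and dividing precursors pass through DNA synthesis (S phase) and mitosis (M phase) before they mature. Maturing phagocytes gain receptors for bacterial products, complement and antibodies.

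From the steps between the lowest values, the Ym1- library held about 44.4% of the fragments of the Ym1+ library. An FPKM of 10 for a transcript of 2 kb stood for roughly 191 fragments in the Ym1+ library and 84.6 in the Ym1- library. Counting error alone then gives a gene of equal level an interval (95%, exact binomial) from -0.38 to 0.38 for the log2 ratio at an FPKM of 10, and from -0.12 to 0.12 at an FPKM of 100. These intervals leave out the variation between mice and preparations. An exact 0 can be a failed estimate, because Actr3, a subunit of the actin-nucleating Arp2/3 complex, stood at 0 for Ym1+ against 635 for Ym1-, and Nono, a nuclear RNA-binding protein, at 0 and 233. In all, 22 genes were left out for a 0, of which 4 reached an FPKM of 10 in the other library.

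Differences are given throughout as log2(FPKM + 1) in Ym1+ minus Ym1-, which understates the change of genes of low level, and 2-fold means a difference of at least 1 on this scale. Of the 10431 genes, 120 were at least 2-fold higher in Ym1+ (1.15%) and 100 at least 2-fold lower (0.959%), 2.11% together, and 8942 (85.7%) lay within 0.5 of 0. The median difference over all genes was -0.06, and 41.9% of genes lay above 0. The median size of a difference, whatever its sign, was 0.20. Where GENCODE gave a transcript length, the counting interval excluded equal levels for 108 of 115 higher genes and 97 of 98 lower genes. Of all 10431 genes compared, 4109 had such an interval. The higher and lower genes were picked on the same 2 values, so these counts are no check of the calls.

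**Figure D1:**
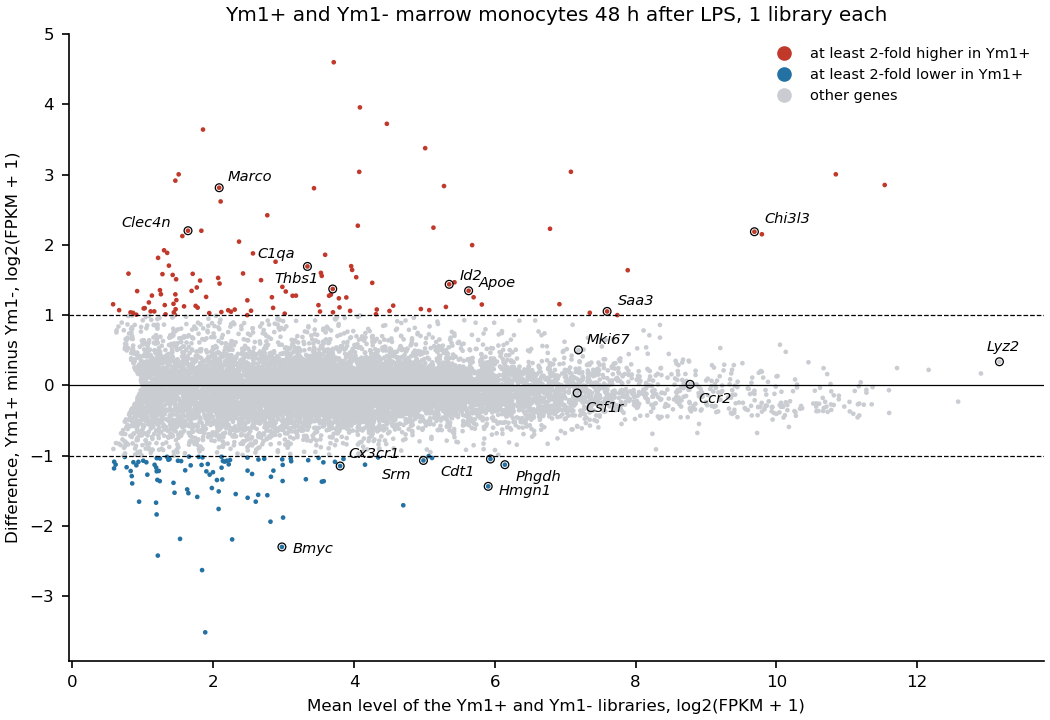
Difference between the Ym1+ and Ym1- libraries (vertical axis, log2(FPKM + 1)) against the mean level of the 2 libraries (horizontal axis, same scale) for 10431 genes, with dashed lines at a 2-fold difference. Chi3l3 lies among the abundant higher genes, the lower genes are mostly of low level, and the monocyte genes Csf1r and Ccr2 lie near 0.

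Chi3l3 followed the sort, with 1759 and 386 FPKM in the Ym1+ and Ym1- libraries and 430.0 in naive monocytes, a difference of 2.19 between the first pair. Chi3l4, its close relative that encodes Ym2, had 238 and 49.9 and is uncertain because near-identical copies can share fragments. The Chi3l3 level in neutrophils was 1712 after LPS and 1484 without it, and the Ym1+ library lay near the neutrophil level and the Ym1- library near that of naive monocytes. The 250 bases before the start of either gene are shown because this is the locus that set the sort. Capitals mark TTCNNNGAA, the core bound by STAT factors, and TTGCNNAA, a core bound by C/EBP factors, each searched on both strands (sequences from RefSeq, GRCm38.p6, 5′ to 3′ on the coding strand). The deposited values carry no coordinates and were made on mm9.
Chi3l3 (RefSeq Chil3), chr3:106167565-106167814 (minus strand): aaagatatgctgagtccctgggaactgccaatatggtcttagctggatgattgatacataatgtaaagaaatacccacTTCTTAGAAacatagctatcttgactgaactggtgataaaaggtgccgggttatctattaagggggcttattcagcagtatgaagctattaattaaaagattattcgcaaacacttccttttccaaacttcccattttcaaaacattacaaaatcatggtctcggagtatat
Chi3l4 (RefSeq Chil4), chr3:106219480-106219729 (minus strand): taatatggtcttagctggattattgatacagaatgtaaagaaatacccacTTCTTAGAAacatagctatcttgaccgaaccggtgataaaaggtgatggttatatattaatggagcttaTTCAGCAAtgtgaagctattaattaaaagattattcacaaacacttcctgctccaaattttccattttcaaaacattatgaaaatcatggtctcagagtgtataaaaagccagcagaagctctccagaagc

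Both windows held the same letters TTCTTAGAA, and the Chi3l4 window also held a C/EBP core. Across promoters of the genes compared, 6.19% held TTCNNNGAA and 7.50% held TTGCNNAA, and across all RefSeq promoters 7.18% and 9.55%. The 2 patterns do not overlap in these windows. Among 94 higher genes with a RefSeq promoter, 19 (20.2%) held the C/EBP core, as did 4 of 70 lower genes (5.71%). The share of higher genes holding TTCNNNGAA was 8.51%. A match gives the letters of the window and no evidence of binding.

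Genes that define classical monocytes were mostly at like levels in both libraries. Ccr2, the receptor for the chemokine that draws monocytes out of the marrow, had 439 and 434 FPKM in Ym1+ and Ym1- monocytes. Csf1r, which encodes the sorted marker CD115, had 138 and 148, and Ly6c2, which encodes part of the Ly6C antigen, had 3029 and 3175. Both libraries were sorted as Ly6C+ CD115+ cells, so the levels of Csf1r and Ly6c2 are a check of the sort. Of 14 monocyte identity genes, 7 lay above 0, none was 2-fold higher and 1 was lower, with a median of -0.01 beside -0.06 over all genes. The lower gene was Cx3cr1, the fractalkine receptor, at 8.38 and 19.8, both below the 88.0 of naive monocytes. Ly86, a partner of the receptor RP105, also lay on the lower side (117 and 175), whereas the matrix genes Vcan (85.6 and 45.7) and Fn1 (411 and 256), versican and fibronectin, lay on the higher side.

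Markers of other marrow cells moved with the comparison to different degrees. All 14 neutrophil genes outside the granules lay above 0, with 7 at least 2-fold higher and a median of 1.05. Their summed level was 665 FPKM in Ym1+, 481 in Ym1-, 498 in naive monocytes and 9429 in neutrophils after LPS. None of the list was at 0 in either monocyte library. Retnlg, the most abundant of them in neutrophils (5157 after LPS), had 13.7 and 10.6 in the monocyte libraries. Of the 120 higher genes, 82 were at least as high in neutrophils after LPS as in Ym1+. For these the excess of Ym1+ over Ym1- amounted to between 0.361% (Mmp9) and 78.3% (Chi3l4) of the neutrophil level, with a median of 4.93%, while for Retnlg it was 0.0606%. The part of neutrophil RNA in these results was not tested. In bulk samples, fewer cells of a type and less RNA per cell cannot be told apart.

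Eosinophil genes were on the lower side in sum. Their summed level was 10.8 FPKM in Ym1+ and 51.7 in Ym1-, with Prg2, the eosinophil major basic protein, listed at 0 and 28.0 and Epx, eosinophil peroxidase, at 0 and 1.37. Without these 2 genes, whose 0 can be a failed estimate, the sums were 10.8 and 22.3. Alox15, an arachidonate lipoxygenase, had 0.0864 and 2.42, and the part of eosinophil RNA in this was not tested. The eosinophil-associated ribonuclease genes did not move together, as Ear6 had 2.63 and 9.67, Ear1 had 6.79 and 11.1 and Ear2 had 70.5 and 24.9, and reads of this near-identical family may be split between members. Erythroid genes summed to 17.4 in Ym1+, 3.16 in Ym1- and 20.6 in naive monocytes, and only the globin genes among them reached an FPKM of 1. The B cell list summed to 6.05 and 11.5 and the T and NK cell list to 7.39 and 5.94. The basophil and mast cell list summed to 3.56 and 2.71 (1.27 and 2.02 without Hdc, at 325 in neutrophils after LPS). The platelet list summed to 4.65 and 0.695, of which Pf4 made up 3.48 and 0. That 0 can be a failed estimate, and Ppbp of the same list had 0.436 and 0.488.

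**Figure D2:**
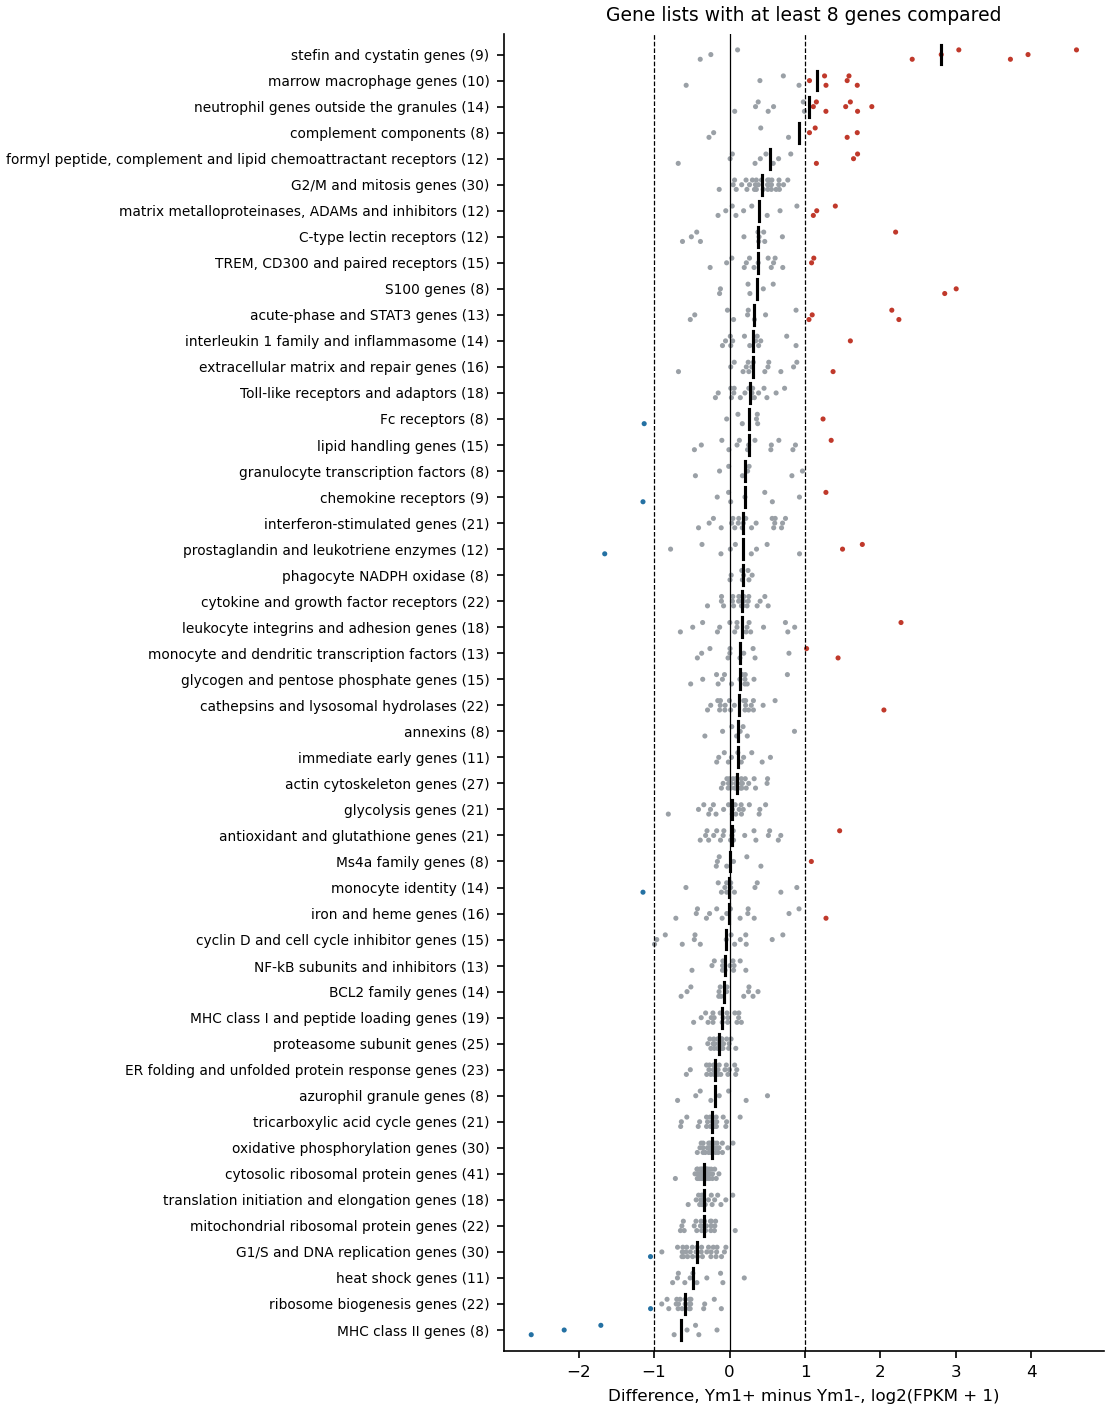
Differences between Ym1+ and Ym1- monocytes (horizontal axis, log2(FPKM + 1)) for the members of gene lists with at least 8 genes compared, the number in brackets. The groups put together after the values were seen are not shown. Each point is 1 gene, red or blue where at least 2-fold higher or lower, and black bars are medians, which run from -0.65 for MHC class II genes to 2.81 for stefin and cystatin genes.

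Cell cycle genes separated by phase. All 30 genes of the G1/S transition and DNA replication lay below 0, with a median of -0.43, and 29 of 30 genes of G2/M and mitosis lay above 0, with a median of 0.43. All but 1 of the 60 differences were less than 2-fold. The exception was Cdt1, which loads the replicative helicase onto DNA and is destroyed once replication starts, at 41.7 and 87.1 FPKM in Ym1+ and Ym1-. Over all genes compared 41.9% lay above 0, against none of the first list and all but Ccnb2 of the second. With median-of-ratios scaling, which raised the median of all genes by 0.07, 2 of the 30 G1/S genes crossed to above 0 (Pola1 and Tyms) and the G2/M count stayed at 29.

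Among the replication genes, the helicase subunits Mcm3 (109.7 and 169.8) and Mcm2 (73.1 and 113) and the helicase loader Cdc6 (16.3 and 31.3) had differences of -0.63, -0.62 and -0.90. Pcna, the sliding clamp of DNA polymerase, was the most abundant of the list at 360.4 and 444. Tyms, the enzyme that makes thymidylate, was nearly level at 28.4 and 29.8, as was Pola1, the polymerase that starts each new strand, at 21.3 and 22.1. Levels in naive monocytes were lower than in Ym1+ for 28 of the 30 genes and lower than in Ym1- for 30.

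Among the mitotic genes, Prc1, a microtubule bundler of the division plane, had the largest difference at 88.7 and 51.5. Top2a, a topoisomerase that untangles chromosomes, had 222 and 151, and Ccnb1, the cyclin that drives entry into mitosis, had 123 and 83.2. Ube2c, an enzyme that marks cyclins for destruction, had 227 and 144, and Mki67, the gene of the proliferation antigen Ki-67, had 173 and 121. The exception to the direction was Ccnb2, a second mitotic cyclin, at 153 and 168. For these 30 genes the level in neutrophils after LPS was below that in Ym1+ in every case, with a summed level of 851 against 2828.

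The summed level of the G2/M list divided by that of the G1/S list was 1.25 in Ym1+, 0.728 in Ym1-, 1.10 in naive monocytes, 1.48 in neutrophils after LPS and 2.32 in naive neutrophils. The Ym1- library thus had the lowest of the 5 ratios and was the only one in which G1/S genes summed above G2/M genes. Of the regulators around the first of these steps, Ccnd1 (0.399 and 1.78) and Ccnd2 (1.17 and 3.22), D-type cyclins of low level here, and Cdk4 (134 and 184), their kinase, lay on the lower side. E2f1, an activator of S-phase genes, had 18.3 and 28.8. The 15 genes of D-type cyclins and cell cycle inhibitors had a median of -0.04, and none was 2-fold apart. Cdkn2c (50.3 and 33.6) and Cdkn2d (53.9 and 32.7), which encode inhibitors of Cdk4, lay on the higher side, and Ccnd3, the abundant D-type cyclin of these cells, had 236 and 214.

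**Figure D3:**
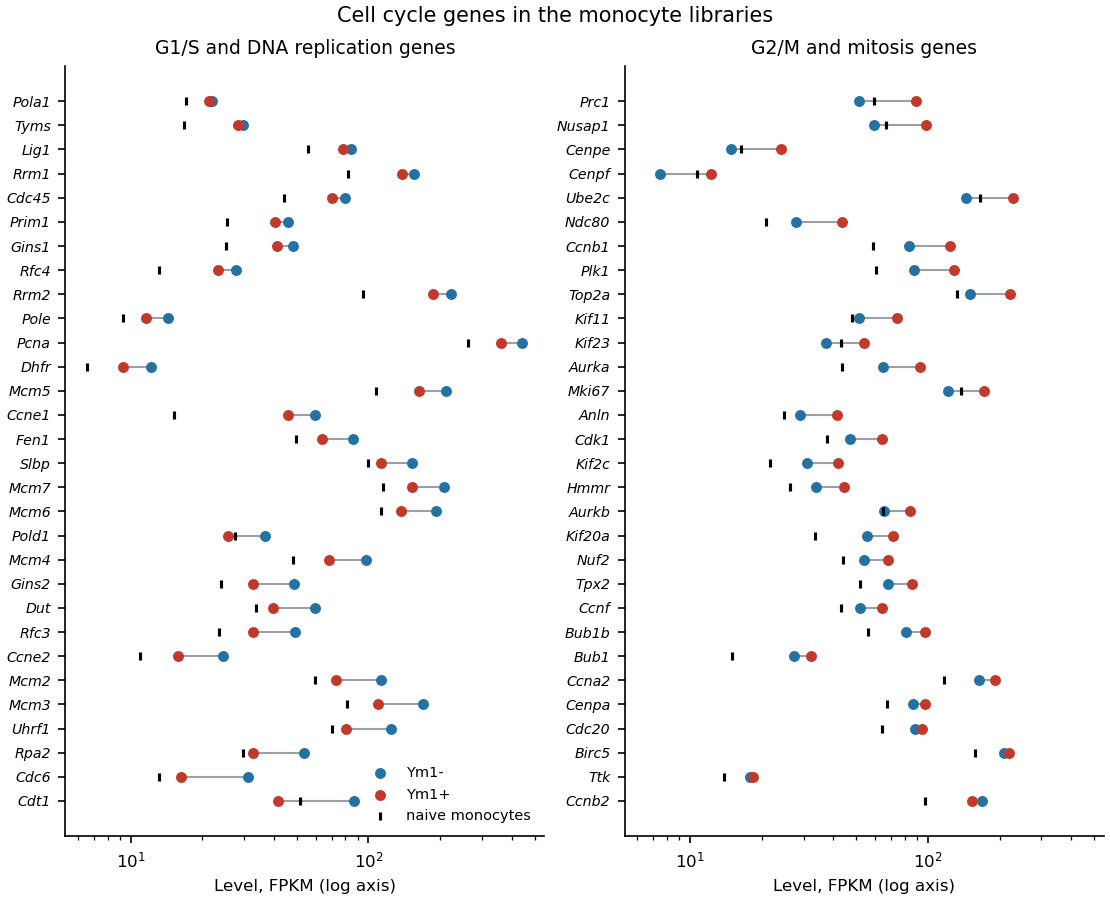
Levels (horizontal axis, FPKM on a log axis) of 30 G1/S and DNA replication genes and 30 G2/M and mitosis genes in the Ym1+, Ym1- and naive monocyte libraries, each point 1 library. In the left panel every Ym1+ point lies left of the Ym1- point, and in the right panel every Ym1+ point but that of Ccnb2 lies right of it.

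Promoters of 3 of the replication genes are shown because E2F factors control many genes of this class. Capitals mark TTTGGCGC or TTTCCCGC on either strand, both E2F cores, and in Mcm5 also a TTCNNNGAA near the start of the window.
Mcm5, chr8:75109259-75109508 (plus strand): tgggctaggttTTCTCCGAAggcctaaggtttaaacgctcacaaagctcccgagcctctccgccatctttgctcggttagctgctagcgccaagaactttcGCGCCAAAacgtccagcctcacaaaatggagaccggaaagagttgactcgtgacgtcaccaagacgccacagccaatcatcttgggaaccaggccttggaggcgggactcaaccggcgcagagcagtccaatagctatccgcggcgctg
Mcm6, chr1:128359706-128359955 (minus strand): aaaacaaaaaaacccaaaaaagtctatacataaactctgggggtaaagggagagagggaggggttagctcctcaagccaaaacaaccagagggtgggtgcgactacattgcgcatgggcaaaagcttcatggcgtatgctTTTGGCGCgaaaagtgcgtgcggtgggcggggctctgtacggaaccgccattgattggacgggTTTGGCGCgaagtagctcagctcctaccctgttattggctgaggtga
Cdc6, chr11:98907901-98908150 (plus strand): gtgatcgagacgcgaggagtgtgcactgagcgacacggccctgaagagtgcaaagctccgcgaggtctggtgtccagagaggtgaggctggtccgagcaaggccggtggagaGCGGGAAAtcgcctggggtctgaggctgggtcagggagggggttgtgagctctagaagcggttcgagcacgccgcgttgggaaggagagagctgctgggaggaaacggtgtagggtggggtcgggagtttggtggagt

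Mcm5, a helicase subunit, had 163 and 211 FPKM in Ym1+ and Ym1-, a difference of -0.37. Mcm6, another subunit, had 137 and 192, a difference of -0.49. An E2F core was present in 5 of 24 promoters of the G1/S list (20.8%) and in 0 of 26 of the G2/M list. It was present in 1 of 70 promoters of lower genes (1.43%) and in 2.85% of those of all genes compared (1.35% of all promoters). The 3 promoters shown all hold a core and so do not stand for the whole G1/S list.

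Genes of ribosome assembly and protein synthesis lay below 0 as groups. All 22 ribosome biogenesis genes lay below 0, with a median of -0.59, and 1 was at least 2-fold lower. That gene was Gnl3, nucleostemin, at 9.03 and 19.7 FPKM. Npm1, the nucleolar chaperone nucleophosmin, had 371 and 593, Fbl, the rRNA methyltransferase fibrillarin, had 117 and 176, and Gar1, a pseudouridylation factor, had 14 and 27.0. The cytosolic ribosomal protein genes also lay below 0 in 41 of 41 cases, though by less (median -0.33, range -0.72 to -0.14). They are among the most abundant transcripts, for example Rplp1 at 2714 and 3560.2 and Rps2 at 1899 and 2510.4. With these genes in TPM and with median-of-ratios scaling, the counts below 0 were again 22 of 22 and 41 of 41. Of 18 translation factor genes 17 lay below 0 (median -0.33).

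Myc, which encodes a driver of ribosome production and growth, was at 7.22 and 13.8 in Ym1+ and Ym1-, a difference of -0.85. Ppan, an assembly factor of the large subunit, had 11.1 and 25.3 and is a lower gene outside the list. Bmyc, a short relative of Myc, had 2.55 and 16.4, 26.5 in naive monocytes and 0 in neutrophils after LPS. E-box letters CACGTG, the core bound by Myc and its partners, stood in 1 of 18 promoters of the biogenesis list, 5 of 70 promoters of lower genes (7.14%) and 8.66% of those of all genes compared (6.05% of all promoters).

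Mitochondrial and chaperone genes also lay mostly below 0. Of 30 oxidative phosphorylation genes, 29 lay below 0 with a median of -0.24, as for Cox4i1 (684 and 872) and Atp5b (670.0 and 838), subunits of complex IV and of ATP synthase. Of 22 mitochondrial ribosomal protein genes 21 lay below 0 (median -0.34), and of 21 genes of the tricarboxylic acid cycle 20 did (median -0.23). No gene of these lists was 2-fold apart. With median-of-ratios scaling the 3 medians were -0.16, -0.26 and -0.16 in the same order. The first and the last are smaller in size than the median size of a difference over all genes (0.20 in FPKM). Of 11 heat shock genes 10 lay below 0 (median -0.49), including Hspd1 (99.9 and 160.5) and Hspe1 (90.4 and 153), the paired chaperonins of the mitochondrion. Proteasome subunits (23 of 25 below 0, median -0.13) and ER folding genes (20 of 23, median -0.19) were nearer to the median of all genes.

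Sugar metabolism did not share this direction. Of 21 glycolysis genes 12 lay above 0, with a median of 0.04 and none 2-fold apart. Gapdh had 2155 and 2276 and Aldoa, an aldolase, 811 and 789.5, whereas Ldha, lactate dehydrogenase A, lay on the lower side at 407 and 516 and Slc16a3, a lactate exporter, on the higher side at 45.9 and 32.7. Among 15 glycogen and pentose phosphate genes (median 0.14), Pygl, the glycogen phosphorylase of liver and leukocytes, had 127 and 74.5, with 801 in neutrophils after LPS. Actin cytoskeleton genes lay above 0 in 22 of 27 cases, with a median of 0.10 that is smaller than the median size of a difference.

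Transcription factor genes were mostly alike in the 2 libraries. Of 13 monocyte and dendritic cell factors 2 were higher and none lower (median 0.14). Id2, an inhibitor of basic helix-loop-helix factors, had 66.2 and 23.8 FPKM in Ym1+ and Ym1-, 45.4 in naive monocytes and 112 in neutrophils after LPS. Maf, a factor of macrophage differentiation, pointed the same way at 7.64 and 4.0. Irf8, which steers progenitors towards monocytes and dendritic cells, had 127 and 171, below the 271 of naive monocytes in both, and Klf4, a factor of Ly6Chi monocytes, had 73.4 and 74.4. Among 8 granulocyte factors none was 2-fold apart (median 0.21). Cebpe, needed for secondary granules, had 17.9 and 8.68, Mxd1, a Myc antagonist, had 12.6 and 6.67, Cebpa had 17.2 and 24.0 and Sfpi1, which encodes PU.1, had 298 and 300.2. NF-kB subunits and inhibitors (13 genes, median -0.06) and immediate early genes (11 genes, median 0.11) held no gene 2-fold apart.

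Most of the tissue macrophage genes that were compared were higher in Ym1+. Of 10 marrow macrophage genes 6 were higher and none lower, and 9 lay above 0, with a median of 1.16. Among the higher genes, Vcam1 and Slc40a1 reached 1 FPKM only in Ym1+, so the filter fixed their sign. The list has 15 members, of which Cd5l, Vsig4, Mertk, Cd163 and Timd4 were not compared. Hmox1, the heme-degrading enzyme, was the most abundant of the 10 genes at 111 and 58.3. The complement genes C1qa (17.2 and 4.62), C1qb (31.7 and 14.7) and C1qc (19.0 and 5.78) encode the 3 chains of C1q, which binds immune complexes and dying cells. All 3 were under 1 FPKM in naive monocytes and between 1.38 and 1.75 in neutrophils after LPS. For C1qa the difference was 1.69 and the counting interval of the log2 ratio ran from 1.24 to 2.66. Vcam1, an adhesion molecule of erythroblastic island macrophages, had 3.20 and 0.401 and Spic, a factor of heme-recycling macrophages, had 4.77 and 1.41. Slc40a1, the iron exporter ferroportin, had 2.40 and 0.404, but 68.5 in neutrophils after LPS. The summed level of the list was 246 in Ym1+, 132 in Ym1-, 102 in naive monocytes and 162 in neutrophils after LPS, the last mostly Slc40a1 and Hmox1 (73.2). The exception to the direction was Axl, a receptor for dying cells, at 6.93 and 10.8. The defining markers Vsig4 and Timd4 were at 0 in both monocyte libraries, and Cd163 had 0.552 and 0.797. The part of macrophage RNA in this result was not tested.

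Other complement genes pointed the same way. Cfb, factor B of the alternative pathway, had 33.9 and 14.9 with 4.01 in naive monocytes, and C3, its central component, had 362 and 210.1. Cfp, properdin, had 175 and 131. Of 8 complement genes compared 4 were higher and none lower (median 0.92), 3 of them the C1q genes already counted with the macrophage genes.

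Marco, a scavenger receptor of macrophages that binds bacteria, had 10.2 and 0.60 FPKM in Ym1+ and Ym1-, 0 in naive monocytes and 1.52 in neutrophils after LPS. Its difference of 2.81 was the largest among genes with a level in neutrophils after LPS below that in Ym1+, other than Rpl26, Rpl34-ps1 and the globin gene Hbb-b1, which belong to multi-copy families whose reads are hard to assign. About 188 and 4.89 fragments stood behind its 2 values, which gives a counting interval from 2.81 to 5.70 for the log2 ratio. Msr1, scavenger receptor A, had 44.0 and 24.2, and Cd68, a macrophage lysosomal glycoprotein, had 278 and 204. Apoe, the lipid carrier apolipoprotein E, had 77.9 and 30.0, far below the 351 of naive monocytes. Lpl, lipoprotein lipase, had 45.5 and 28.6, and Apoc2, its cofactor, had 48.5 and 26.0. Of 15 lipid handling genes 11 lay above 0 (median 0.25).

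**Figure D4:**
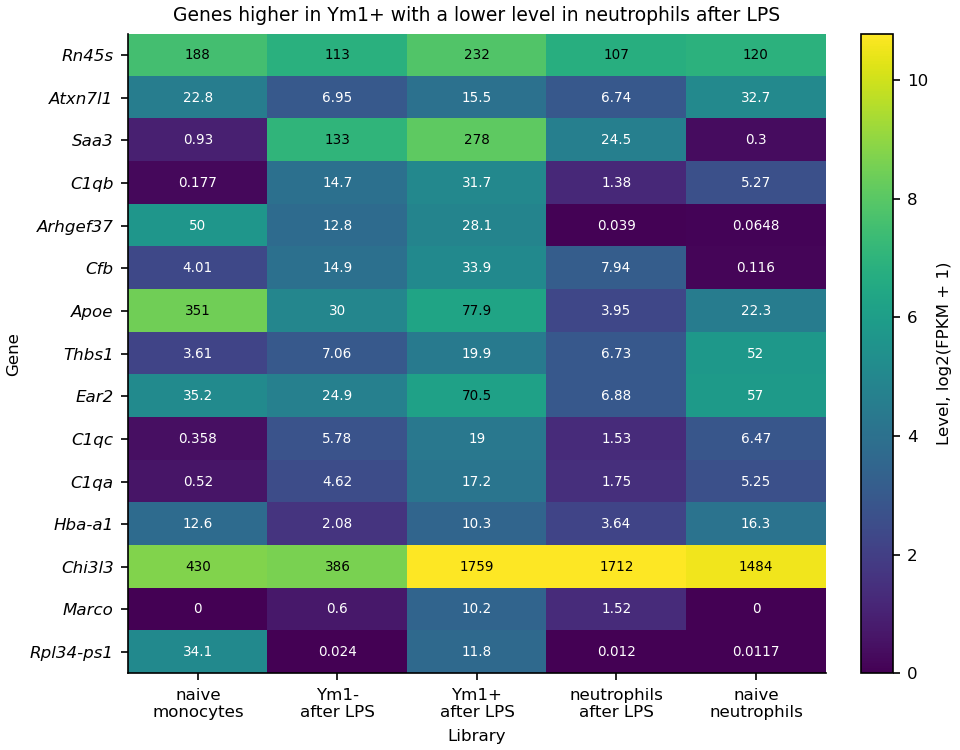
Levels (FPKM in each cell, colour in log2(FPKM + 1)) in the 5 libraries of 15 of the 16 genes at least 2-fold higher in Ym1+ than in Ym1- that had at least 10 FPKM in Ym1+ and a lower level in neutrophils after LPS. Rows are ordered by the difference, and Saa3, Marco and the C1q genes are nearly absent from naive monocytes while Apoe is highest there.

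In all, 38 of the 120 higher genes had a level in neutrophils after LPS below that in Ym1+. Besides those above they included Saa3, Thbs1, Clec4n and Ms4a7, described further on. Penk, which encodes the opioid precursor proenkephalin, had 4.66 and 0.885, and Kcne3, a potassium channel subunit, had 4.49 and 1.69 against 10.9 in naive monocytes. Arhgef37 had 28.1 and 12.8, 50.04 in naive monocytes and 0.039 in neutrophils after LPS. The set also held 5 histone genes, each under 3 FPKM in Ym1+, whose reads can be shared between near-identical copies. Among the 100 lower genes, 98 had a level in neutrophils after LPS below that in Ym1-, and 81 were under 1 FPKM there. Over all genes compared these shares were 74.6% and 16.4%, and 75.5% had a level in neutrophils after LPS below that in Ym1+, against 31.7% of the higher genes.

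Receptors that sense microbes lay mostly on the higher side, and 1 of them, a C-type lectin, passed 2-fold. Of 18 Toll-like receptor and adaptor genes 16 lay above 0 and none was 2-fold apart, with a median of 0.27. Tlr4, the LPS receptor, had 13.1 and 9.80, Ly96, its co-receptor MD-2, had 13 and 7.43, and Cd14, which hands LPS to them, had 10.9 and 12.2. Tlr2, the receptor for bacterial lipopeptides, had 39.9 and 39.4. Of 12 C-type lectin receptors 8 lay above 0 and 1 was higher (median 0.38). That gene was Clec4n, the fungal receptor dectin-2, at 5.69 and 0.455, with 1.25 in neutrophils after LPS. Clec7a, dectin-1, lay on the other side at 74.0 and 96.9, and Clec4e, mincle, had 34.0 and 24.6.

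Fc receptors split. Fcgr4, an activating receptor for IgG, was higher at 20.2 and 7.97, with 175 in neutrophils after LPS, and Fcgrt, the neonatal receptor that recycles IgG, was lower at 4.36 and 10.7, against 31.3 in naive monocytes and 0.231 in neutrophils after LPS. Fcgr1, the high-affinity IgG receptor, had 48.5 and 49.8, both above the 17.9 of naive monocytes. Of 15 TREM, CD300 and paired receptor genes 13 lay above 0 and 2 were higher (median 0.38). These were Pilra (57.2 and 25.8) and Cd300lf (44.0 and 20.2), inhibitory receptors, each with a higher level in neutrophils after LPS (167 and 245). Trem2, a lipid-sensing receptor of macrophages that was at 0 in neutrophils after LPS, had 39.5 and 40.6.

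Receptors that guide phagocytes to bacteria and inflamed tissue lay mostly on the higher side. Of 12 receptors for formyl peptides, complement fragments and lipid mediators 11 lay above 0, and 3 were higher, with a median of 0.53. Fpr1 (27.0 and 7.64) and Fpr2 (82.9 and 36.8) sense bacterial formyl peptides and C5ar1 (26.7 and 7.88) senses the complement fragment C5a. In neutrophils after LPS the 3 genes had 288, 656 and 226. Ltb4r1, the leukotriene B4 receptor, had 92.9 and 58.8. Receptors with little expression in neutrophils pointed the same way by less, as Cmklr1, the chemerin receptor, had 8.37 and 5.27 (0.514 in neutrophils after LPS) and Cysltr1, a cysteinyl leukotriene receptor, 17.7 and 13.8 (0.139). Ptger4, a receptor for prostaglandin E2, was the exception at 5.41 and 9.27. Of 8 annexin genes, which encode membrane-binding proteins, none was 2-fold apart (median 0.12). Anxa1, whose product is a ligand of Fpr2, had 437 and 240.4, with 4055 in neutrophils after LPS.

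Among 9 chemokine receptors 1 was higher and 1 lower (median 0.20). Cxcr2, the receptor that draws neutrophils out of the marrow, had 13.1 and 4.8, and 675 in neutrophils after LPS, and the lower one was Cx3cr1, above. Cxcr4, the receptor that holds cells in the marrow, had 182 and 204, and Ccr1 had 79.7 and 53.4. Ccl5, a ligand of Ccr1, had 9.63 and 4.57, and Ccl9 had 94.1 and 125. No chemokine ligand was 2-fold apart (7 genes, median 0.24), and the median difference of chemokine ligands became -0.029 where both the values and the minimum of 1 were in TPM, against 0.31 in TPM over the same 7 genes.

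Acute-phase genes diverged. Of 13 acute-phase and STAT3 genes 10 lay above 0 and 4 were higher, with a median of 0.33. Saa3, a serum amyloid A gene of macrophages, had 278 and 133 FPKM in Ym1+ and Ym1-, 0.930 in naive monocytes and 24.5 in neutrophils after LPS. The difference was 1.05, with a counting interval from 0.95 to 1.17 for the log2 ratio. Saa3 was the only 1 of the 4 higher genes with a level in neutrophils after LPS below that in Ym1+. Lrg1, a secreted leucine-rich glycoprotein, had 75.1 and 15.1 with 1781 in neutrophils after LPS, and Hp, which encodes the hemoglobin scavenger haptoglobin, had 1324 and 951. The 3 below 0 were Ifitm1, an interferon-induced membrane protein gene, at 74.7 and 103, and the kinase genes Pim3 (2.46 and 3.96) and Pim1 (109 and 111). Differences were small for Socs3, a feedback inhibitor of cytokine signaling that had 16.1 and 13.5, and Stat3, a factor activated by interleukin 6 and G-CSF, at 66.6 and 52.8, and both libraries lay above naive monocytes (0.905 and 48.7). The Saa3 promoter is shown for its single C/EBP core, in capitals.
Saa3, chr7:46715677-46715926 (minus strand): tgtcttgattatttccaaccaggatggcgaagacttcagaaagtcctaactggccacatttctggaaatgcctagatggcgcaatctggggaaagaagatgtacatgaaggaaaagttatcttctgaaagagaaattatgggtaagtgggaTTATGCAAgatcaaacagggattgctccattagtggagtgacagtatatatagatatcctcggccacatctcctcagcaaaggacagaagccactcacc

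Of the cytokine genes, Grn, the growth factor granulin, was the most abundant at 355 and 299.8, and Tgfb1, transforming growth factor beta 1, had 169 and 192. Il1b, interleukin 1 beta, had 1.02 and 0.761, Tnf 4.86 and 4.99, and Il6 and Il10 were listed at 0 in both. In the interleukin 1 family, the decoy receptor gene Il1r2 had 19.1 and 5.63 (265 in neutrophils after LPS), the receptor antagonist gene Il1rn had 7.78 and 3.76, and Il1f9, the agonist interleukin 36 gamma, had 26.9 and 8.59 (150.4 in neutrophils after LPS). Of 7 cytokine and growth factor genes none was 2-fold apart (median 0.24). Of 14 genes of the interleukin 1 family and inflammasome 12 lay above 0 (median 0.31), while Casp1 (44.2 and 45.9), Pycard (95.6 and 92.9) and Gsdmd (54.7 and 54.2), parts of the inflammasome pathway, were level. Among 22 cytokine receptor genes none was 2-fold apart (median 0.17), and Csf3r, the G-CSF receptor, had 43.5 and 30.2. Of 21 interferon-stimulated genes 17 lay above 0 and none was 2-fold apart (median 0.18), with Isg15, a ubiquitin-like protein, at 11.2 and 6.58 and Mx1, an antiviral GTPase, at 11.6 and 12.6.

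Genes of matrix and tissue repair lay above 0 in 15 of 16 cases, with a median of 0.31 and 1 at least 2-fold higher. That gene was Thbs1, thrombospondin 1, at 19.9 and 7.06, 3.61 in naive monocytes and 6.73 in neutrophils after LPS. The clotting factor genes F10 (182 and 128) and F5 (17.4 and 9.23) and Tgfbi (816 and 656), a matrix protein, pointed the same way. F10 was at 21.4 in neutrophils after LPS. The exception was Lgals1, galectin 1, at 669 and 1069.8. Of 12 metalloproteinase and inhibitor genes 3 were higher and 10 lay above 0, with a median of 0.40 that dropped to 0.14 without genes at least 10-fold higher in neutrophils after LPS than in Ym1-. The 3 were Mmp8 (179 and 80.0), Mmp9 (11.8 and 3.86) and Mmp25 (19.4 and 8.44), which neutrophils after LPS had at 1696, 2209 and 242. Mmp14, a membrane-bound collagenase with 0.296 there and 0 in naive monocytes, had 3.72 and 1.96.

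Enzymes of lipid mediators diverged within the list of 12 (2 higher, 1 lower, median 0.18). Alox5, which makes leukotrienes, had 12.6 and 3.01 and Ptgs1, cyclooxygenase 1, had 9.76 and 2.81, with 221 and 22.9 in neutrophils after LPS. Pla2g7, which degrades platelet-activating factor, had 64.3 and 33.3. Alox15 was the lower member, and Hpgd, which degrades prostaglandins, had 0.567 and 1.69 against 47.7 in naive monocytes. Ptgs2, cyclooxygenase 2, was at 0.0727 and 0 and was not compared.

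Genes of the oxidative burst differed little, as all 8 subunits and partners of the phagocyte NADPH oxidase lay above 0 but with a median of 0.18, below the median size of a difference. Of 21 antioxidant and glutathione genes 12 lay above 0 (median 0.03) and 1 was higher, the microsomal glutathione transferase gene Mgst2 at 30.7 and 10.5. Of 16 iron and heme genes 8 lay above 0 (median -0.01). Slc11a1, a metal exporter of the phagosome, had 30.8 and 17.4, while Tfrc, the transferrin receptor, had 4.60 and 8.17. Cathepsins and lysosomal hydrolases were level (22 genes, 13 above 0, median 0.13), with 1 higher member. That member was Cd63, a tetraspanin of lysosomes and azurophil granules, at 9.47 and 1.54, and 328 in neutrophils after LPS.

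The most uneven families were those with members known from neutrophils. Of 9 stefin and cystatin genes 6 were higher, all of them stefin A genes, which encode cathepsin inhibitors and are near-identical copies that can share fragments. Stfa1 had 63.4 and 1.66 FPKM in Ym1+ and Ym1- and 2066 in neutrophils after LPS, while Cstb, stefin B, had 145 and 134 and Cst3, the abundant cystatin C of monocytes, 983 and 1167. Of 8 S100 genes, which encode calcium-binding proteins, the 2 higher were S100a8 (7993 and 1107) and S100a9 (5205 and 648), the subunits of calprotectin, at 117292 and 97712 in neutrophils after LPS. S100a4 (791 and 859.6) and S100a10 (651 and 713), under 6 FPKM there, lay on the other side.

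Of 18 leukocyte integrin and adhesion genes 1 was higher, Cd177, a surface glycoprotein of neutrophils, at 35.5 and 6.56 (2399 in neutrophils after LPS). Itgam, the CD11b integrin chain, had 185 and 101 (678 in neutrophils after LPS), its partner Itgb2 had 336 and 246, and F11r, a junctional adhesion molecule, had 23.4 and 13.3 against 0.842 in naive monocytes. Icam1, a ligand of these integrins, lay on the lower side at 19.3 and 27.5, as did Itgb7, an integrin chain, at 149 and 191 and Cd9, a tetraspanin, at 11.2 and 18.2. In all 13 of the 18 lay above 0 (median 0.16). Of 5 Ly6 family genes 1 lay above 0 (median -0.07), Ly6i at 37.7 and 20.9, and Ly6a, the stem cell antigen Sca-1, had 43.4 and 74.0. Among Ms4a membrane genes the 1 higher member was Ms4a7, a macrophage gene, at 3.02 and 0.897, and Ms4a3, a gene of granulocyte-monocyte progenitors, had 116 and 127. MHC class I genes lay mostly below 0 (5 of 19 above) with a median of -0.10, near that of all genes. Of markers commonly assigned to M1 macrophages 7 were compared, with 1 higher and 1 lower (median 0.17), and of those assigned to M2 macrophages 6, with none 2-fold apart (median 0.43). The enzyme genes Nos2 and Arg1 were under 1 FPKM in both libraries.

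The genes of immature cells that were compared lay mostly on the lower side. All 6 stem and progenitor genes compared lay below 0, with 2 at least 2-fold lower and a median of -0.72. Of these, Cd34, Flt3 and Hoxa9 reached 1 FPKM only in Ym1-, so the filter fixed their sign. Myb, Meis1 (1.73 and 2.58) and Ly6a reached it in both libraries. Cd34, a sialomucin of progenitors, had 0.972 and 4.92 with 20.3 in naive monocytes, and Flt3, a cytokine receptor of progenitors and dendritic cells, had 0.111 and 1.92 with 5.02 there. Myb, a progenitor transcription factor, had 9.81 and 15.9. Of 8 azurophil granule genes, which are made at the promyelocyte stage, none was 2-fold apart (median -0.19). Of the 5 dendritic cell genes compared 2 were lower, Flt3 and Clec9a (0.0348 and 1.20), a receptor for dead cells. Both reached 1 FPKM only in Ym1-, which likewise fixed their sign. The survival genes of the BCL2 family (14 genes, median -0.08) and the genes of Ly6C-low monocytes (7 genes, median 0.23) held none 2-fold apart.

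Besides the MHC class II chaperone gene Cd74, 6 lower genes reached 30 FPKM in Ym1-, namely Hmgn1, Phgdh, Srm, Cdt1, Igfbp4 and Snhg6. Hmgn1, a protein that binds nucleosomes and loosens chromatin, had 35.5 and 97.6 FPKM in Ym1+ and Ym1-, 34.2 in naive monocytes and 0.474 in neutrophils after LPS, a difference of -1.44 with a counting interval from -1.65 to -1.27 for the log2 ratio. Phgdh, the first enzyme of serine synthesis, had 46.8 and 103 and 29.3 in naive monocytes. Srm, spermidine synthase, had 20.9 and 44.9 and 16.8 there, and Snhg6, a non-coding host gene of a snoRNA, had 22.6 and 46.3. Fads1, a fatty acid desaturase, had 8.10 and 18.3 with 3.60 in naive monocytes, and Igfbp4, a binding protein of insulin-like growth factors, 23.1 and 48.3. For Hmgn1, Phgdh, Srm and Fads1 the Ym1+ level lay nearer than the Ym1- level to naive monocytes. For Igfbp4, at 69.3 in naive monocytes, the Ym1- level lay nearer. Further lower genes were Eng (2.97 and 10.7), a co-receptor of the TGF-beta family, and Dpp4 (2.22 and 8.76), a peptidase. Serpinf1 (2.59 and 12.8), which encodes a secreted serpin, and Ckb (3.15 and 14.3), a creatine kinase, were also lower. All 4 were at 0.556 FPKM or less in neutrophils after LPS. Naive monocytes had 9.10 for Eng, 29.7 for Serpinf1 and 21.0 for Ckb, in each case nearer to the Ym1- level. The 8 MHC class II genes compared lay below 0, with a median of -0.65 that became -1.13 with an FPKM minimum of 5 and -1.05 with a pseudocount of 0.1.

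Naive monocytes lay between the Ym1+ and Ym1- libraries for 41.7% of the higher genes and 48% of the lower genes. Among the 120 higher genes the naive level lay below the Ym1- level for 50, between the 2 libraries for 50 and above Ym1+ for 20. Among the 100 lower genes it lay above Ym1- for 37, between for 48 and below Ym1+ for 15. The same shares were not computed over all genes compared. These genes were picked for a wide gap between the 2 libraries, which leaves more room for a level between. The shares are therefore given as values only. By list, the ribosome biogenesis genes had a median difference from naive monocytes of 0.02 in Ym1+ and 0.61 in Ym1-, and the cytosolic ribosomal protein genes of -0.06 and 0.28. G1/S genes had 0.43 and 0.84, and G2/M genes 0.64 and 0.34. Marrow macrophage genes had 1.53 and 0.57. These differences share the naive library and are given side by side only.

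**Figure D5:**
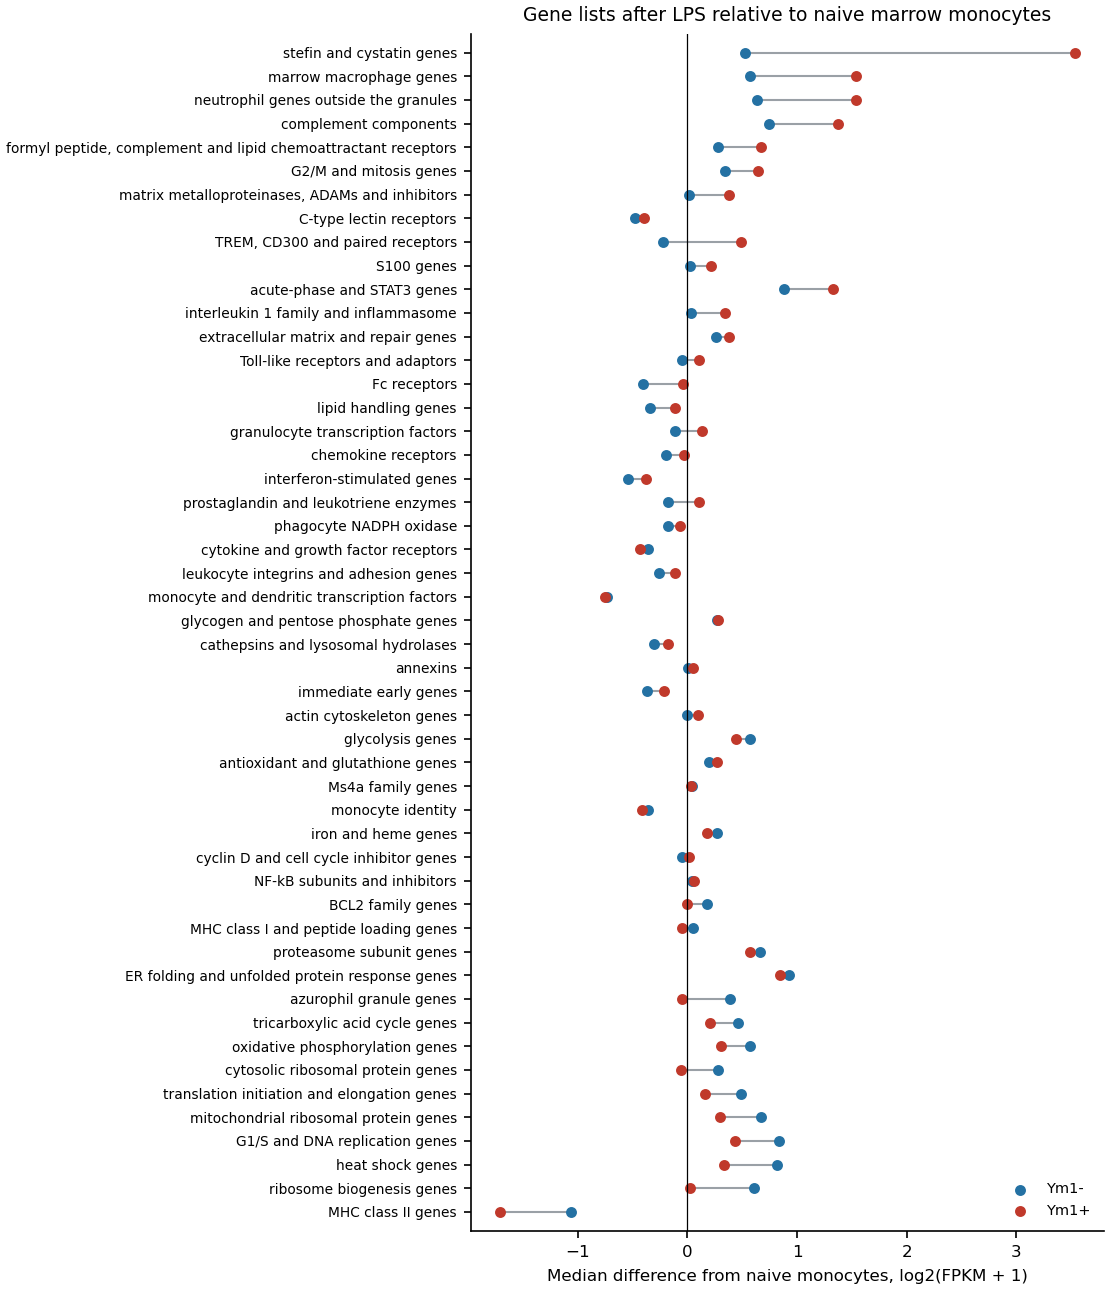
Median difference from naive monocytes (horizontal axis, log2(FPKM + 1)) of the gene lists with at least 8 genes compared. Points are the Ym1+ library (red) and the Ym1- library (blue). Rows follow the median difference between Ym1+ and Ym1-, and groups put together after the values were seen are not shown. Ribosome, G1/S and mitochondrial lists lie further right in Ym1-. Marrow macrophage, complement and most receptor lists lie further right in Ym1+. Cytokine and growth factor receptors are an exception, at -0.43 in Ym1+ and -0.36 in Ym1-. Both points of a row share the same naive library.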

How the data were processed

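RNA-seq libraries of sorted BM cells were deposited as FPKM per gene, 1 value per gene and library. The authors aligned and quantified the reads, with TopHat2 (2.0.8), Cufflinks (2.1.1) and the mm9 build according to the submitters' processing notes. FPKM are normalized to transcript length and mapped fragments. The deposited files hold no counts. Differences of log2(FPKM + 1) were computed here with Python 3.11.15, pandas 2.3.3, numpy 2.4.6, scipy 1.17.1 and matplotlib 3.10.9 over genes reaching 1 FPKM in one library or the other. Transcript lengths came from GENCODE vM21 and promoters from RefSeq GRCm38.p6, matched by symbol (22966 of 23234 listed genes). Depth was estimated from the step of 1 fragment in the lowest values, which put the Ym1- library at 44.4% of the fragments of the Ym1+ library. Exact binomial intervals (95%) on these approximate fragments cover counting error only. The script was tested on simulated data. With 1 library per condition no test was run.

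Named genes were the 40 of largest increase and 40 of largest decrease among genes reaching 10 FPKM, list members at least 2-fold apart, and the 4 members of highest FPKM in each list. Other genes were named for their role after their values were seen. Members, lists and rule were chosen with earlier results of these data known. Alternatives were another pseudocount (0.1), an FPKM minimum of 5, TPM, median-of-ratios scaling, a 4-fold threshold, no filter on low values, and keeping genes listed at 0 or short RNA genes, and 2 more added after seeing the data. In the tables, 25 symbols had been changed into dates and were not used by name. The values of some genes are not reported here.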

Additional observations from a re-analysis of the deposited data

How the results depend on the processing

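Each condition has 1 library, so no value has a replicate error, and low levels are limited by the depth of the Ym1- library. No paired analysis was possible because no condition has replicates and no result came from a test. The causes of the changes below were not tested, except where the setting itself removes genes or raises the threshold.

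Against 120 genes higher, 100 lower and 38 higher with a lower level in neutrophils after LPS, a pseudocount of 0.1 gave 239, 272 and 96, and TPM, with the minimum of 1 also in TPM so that more genes passed, gave 184, 155 and 76. An FPKM minimum of 5 gave 81, 55 and 21, and a 4-fold threshold left 25 higher and 6 lower. Without genes at least 10-fold higher in neutrophils after LPS than in Ym1-, chosen after seeing the data, 51 were higher and 100 lower. With median-of-ratios scaling 139 were higher and 79 lower.

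With a pseudocount of 0.1 the list medians became -0.71 for dendritic cell, 1.40 for marrow macrophage, -1.16 for stem and progenitor, 3.12 for stefin and cystatin and -1.05 for MHC class II genes. The median difference of MHC class II genes was -1.13 with an FPKM minimum of 5 and -0.96 with TPM and its minimum, against -0.74 in TPM over the same 8 genes. Keeping genes listed at 0 gave -0.73 for dendritic cell genes, and leaving out the genes abundant in neutrophils gave 0.14 for metalloproteinases. The median difference of chemokine ligands turned to -0.029 with TPM and its minimum, but was 0.31 in TPM over the same 7 genes. Medians near 0 also varied in sign for the Ly6, Ms4a, NF-kB, cyclin D, iron, monocyte identity and sort marker lists.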

Other observations

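Further gene groups were put together after the values were seen and are given as values. All 10 serine, glycine and one-carbon genes compared lay below 0 (median -0.42), beside 41.9% of all genes above 0. Shmt2, the mitochondrial enzyme that takes a carbon unit from serine, had 58.3 and 105 FPKM in Ym1+ and Ym1- and 39.3 in naive monocytes. Of 16 sterol and fatty acid synthesis genes 15 lay below 0 and 3 were at least 2-fold lower (median -0.57), among them Fads2, a fatty acid desaturase, at 0.146 and 1.80. Among 7 polyamine genes (median -0.16) Odc1, the first enzyme of the pathway, had 25.3 and 43.6.

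All 19 genes of mitochondrial protein import lay below 0 (median -0.33), and the 2 lower ones were Timm10 (6.4 and 18) and Timm9 (4.93 and 11.5), which form a single chaperone of the intermembrane space. All 10 snoRNA host genes lay below 0 (median -0.79), with Snhg1 at 45.6 and 87.2 and Gas5 at 15.5 and 27.5. Of 8 HMG chromatin protein genes 7 lay below 0 (median -0.18), the 2 lower being Hmgn1 and Hmgn3 (4.48 and 10.4), whereas Hmgb2, a DNA-bending protein abundant in dividing cells, had 485 and 438. Of 8 scavenger receptor genes 7 lay above 0 and 2 were higher (median 0.78), and Stab1, a clearance receptor of macrophages, had 2.12 and 0.713.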
